A study of Mus musculus with 12 samples.

Results

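The extracellular side of Wnt signalling was described here at the level of open chromatin, for 42 mouse genes taken by name: 19 Wnt ligands, 15 receptors and co-receptors, and 8 secreted antagonists. The genes were chosen by function, not by any measured value, and make up 42 of the 21938 protein-coding genes of the GENCODE M21 basic annotation. Around them (gene body and 20000 bp either side) lay 394 of the 147985 loci in the data, a locus being a stretch where peaks of any of the 7 ATAC-seq lists overlapped. ATAC-seq marks open chromatin by where the Tn5 transposase can insert sequencing adapters.

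Wnt ligands are secreted, lipid-modified proteins. In the canonical branch they bind a Frizzled receptor together with Lrp5 or Lrp6, which stabilises beta-catenin and lets it act with TCF/LEF factors on target genes. Other ligands, Wnt5a among them, act largely through Ror1, Ror2 and Ryk without beta-catenin. Secreted Frizzled-related proteins (Sfrp) and Wif1 bind the ligands themselves, while some Dickkopf proteins (Dkk), such as Dkk1, bind Lrp5 and Lrp6. In fibroblasts and other mesenchymal cells the pathway is known for its part in growth, migration and cell identity.

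The cells were mouse embryonic fibroblasts (MEFs) made immortal with pairs of transgenes and kept in culture for at least a month. Hdac7SA.Mef2d cells carry an Hdac7 that cannot leave the nucleus, through serine-to-alanine changes, with the transcription factor Mef2d. Hras.E1A cells carry oncogenic Hras with adenoviral E1A, and Hras.Myc cells carry oncogenic Hras with Myc; the labels write Ras for Hras. In the study, pluripotent cells could be made from Hdac7SA.Mef2d cells but not from either Hras line without treatment. Inhibition of the kinase MEK made this possible for Hras.E1A cells, whereas none of the tested conditions did so for Hras.Myc cells. The Hras lines were also treated for 2 days with PD (PD0325901, an inhibitor of the kinase MEK) or with TSA (trichostatin A, an inhibitor of histone deacetylases). The untreated lines and the PD groups had 2 libraries each and the TSA groups 1 each, 12 in all, but only 1 pooled peak list per group was deposited. The labels name the cells OG2 MEFs, which carry an Oct4-GFP reporter, whereas the growth protocol describes MEFs from wildtype ICR embryos at day 13.5. The sources used here do not say whether the lines are clones, and wildtype MEFs were not analysed here.

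The lists differed in length, from 56774 peaks in Hras.Myc with PD to 119251 in Hdac7SA.Mef2d, and their sequencing depth is unknown. A locus was called open in a list that has a peak there. It was called closed with a treatment if only the untreated list had a peak, and opened if only the treated list had one. A shorter list closes more loci and opens fewer over the whole genome, so each share below stands beside the same share over all 21938 genes (the background). With 1 list per group there is no replicate check: no test of a difference was possible, and closed or opened loci are differences between lists. The 95% intervals are exact binomial (Clopper-Pearson) ones, which cover counting error only and take neighbouring loci as independent. PD, TSA and line comparisons share the untreated lists. Of 12 fibroblast marker genes, 7 to 11 had an open promoter in each list, with Lum open in none, Col1a2 open in Hdac7SA.Mef2d and Hras.E1A with PD, and Thy1 absent from 4 lists. Open promoters were also counted for markers of other cells: 5 or 6 of 6 epithelial, 1 to 3 of 5 endothelial and 2 or 3 of 5 neural ones were open in each list. Of 5 blood and macrophage markers, 2 were open in 5 lists and 1 in both PD lists, and Ptprc, Adgre1 and Spi1 in none. An open promoter thus does not by itself mark the cell type here, and the part of other cells in the results was not tested.

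The sequences below show what the distal loci that closed and opened with PD look like. The first 6 are the loci with the highest peak scores among those that closed with PD in both Hras lines and hold an AP-1 motif. That motif is TGANTCA, bound by Fos and Jun proteins, which act downstream of MEK. Loci in exons of the member gene itself were left out, but exons of other genes were not checked. Each is given as the central 200 bases, 5′ to 3′ on the plus strand of GRCm38 (mm10), from the RefSeq genome, with AP-1 matches in capitals. The Wnt3 intron locus is at chr11:103790129-103790328, 16.1 kb inside the gene. The Wnt3 downstream locus is at chr11:103827137-103827336, past the 3′ end of Wnt3 and inside the body of another gene, Nsf. The Wnt5a locus is at chr14:28490532-28490731, 14.1 kb upstream of the transcription start site (TSS), and the Fzd5 locus at chr1:64744750-64744949, 7.099 kb upstream. The Sfrp1 locus is at chr8:23428806-23429005, in an intron, and the Sfrp2 locus at chr3:83775570-83775769, downstream of the gene.
Wnt3 intron: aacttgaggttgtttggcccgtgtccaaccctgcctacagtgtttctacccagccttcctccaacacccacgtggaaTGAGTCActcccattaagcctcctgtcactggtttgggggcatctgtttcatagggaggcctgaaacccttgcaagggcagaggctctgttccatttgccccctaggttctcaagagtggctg
Wnt3 downstream: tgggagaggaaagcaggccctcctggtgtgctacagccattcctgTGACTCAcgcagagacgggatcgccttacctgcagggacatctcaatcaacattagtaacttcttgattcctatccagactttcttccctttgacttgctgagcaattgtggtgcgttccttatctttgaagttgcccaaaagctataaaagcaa
Wnt5a upstream: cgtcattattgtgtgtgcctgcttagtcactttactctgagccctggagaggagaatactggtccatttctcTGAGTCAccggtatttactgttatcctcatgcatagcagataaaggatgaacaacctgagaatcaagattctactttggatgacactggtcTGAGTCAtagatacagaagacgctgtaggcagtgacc
Fzd5 upstream: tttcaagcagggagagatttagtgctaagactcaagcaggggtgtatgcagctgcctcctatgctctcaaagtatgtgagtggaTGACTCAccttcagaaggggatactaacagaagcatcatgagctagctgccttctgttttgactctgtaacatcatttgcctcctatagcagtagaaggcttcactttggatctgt
Sfrp1 intron: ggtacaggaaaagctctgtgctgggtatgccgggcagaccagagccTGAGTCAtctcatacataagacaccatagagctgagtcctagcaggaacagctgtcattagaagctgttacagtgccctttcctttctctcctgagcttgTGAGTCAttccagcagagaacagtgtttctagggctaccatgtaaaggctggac
Sfrp2 downstream: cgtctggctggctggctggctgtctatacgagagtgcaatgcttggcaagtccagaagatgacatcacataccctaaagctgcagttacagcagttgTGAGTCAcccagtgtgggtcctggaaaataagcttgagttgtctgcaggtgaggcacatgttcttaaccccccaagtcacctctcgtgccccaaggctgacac

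A further 3 loci show the opposite case. They are the highest-scoring loci of Ror1, Ror2 and Lrp6 that had no peak in untreated Hras.Myc cells, a peak with PD, and a peak in Hdac7SA.Mef2d. All lie in introns: the Ror1 locus at chr4:100230393-100230592, 134.7 kb from the TSS, the Ror2 locus at chr13:53201745-53201944, 83.7 kb from the TSS, and the Lrp6 locus at chr6:134473227-134473426, 93.6 kb from the TSS and nearer to the TSS of Bcl2l14. None holds TGANTCA or the TEAD motif GGAATG on either strand, so no letter is in capitals.
Ror1 intron: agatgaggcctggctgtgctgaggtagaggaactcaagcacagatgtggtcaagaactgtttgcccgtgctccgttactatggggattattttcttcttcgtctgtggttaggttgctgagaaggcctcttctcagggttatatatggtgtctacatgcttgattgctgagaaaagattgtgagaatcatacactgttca
Ror2 intron: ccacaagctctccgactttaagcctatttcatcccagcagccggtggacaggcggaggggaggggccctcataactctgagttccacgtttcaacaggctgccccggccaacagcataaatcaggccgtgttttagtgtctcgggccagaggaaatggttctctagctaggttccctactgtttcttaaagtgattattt
Lrp6 intron: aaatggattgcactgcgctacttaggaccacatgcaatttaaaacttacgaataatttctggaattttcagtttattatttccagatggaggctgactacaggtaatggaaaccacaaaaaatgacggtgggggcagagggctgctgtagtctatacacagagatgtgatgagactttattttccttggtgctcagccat

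Of the 394 loci, 53 lay within 1000 bp of a member's own TSS (own promoter), 9 at the promoter of another gene, and 332 were distal. All 42 members had at least 1 locus and 40 had a distal one; Fzd3 and Fzd10 had none. The number of distal loci per gene had a median of 6, and the highest were 43 at Ror1, 30 at Ror2 and 25 at Lrp6, which are also long genes (349 kb for Ror1, 177 kb for Ror2). Of the distal loci, 160 (48.2%) were in introns, 90 downstream and 61 upstream of the gene, and 264 had a member as the gene with the nearest TSS. The 4 pairs of neighbouring ligand genes (Wnt1 and Wnt10b, Wnt3 and Wnt9b, Wnt3a and Wnt9a, Wnt6 and Wnt10a) shared 23 loci, which count for both genes but once in any sum. Just inside the limit, at 15 to 20 kb from the gene body, lay 40 distal loci, with 23 open in Hras.E1A, 6 of which closed with PD. Just outside it, at 20 to 25 kb, lay 43, with 23 open and 4 closed. The median GC content of the distal loci was 49.2%, against 47% over all genes, and that of own promoters was 69.5%, against 64.5%.

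Most members had an open promoter in every list. The number of members with an open own promoter was 33 of 42 in Hdac7SA.Mef2d, 36 in Hras.E1A, 36 with PD and 38 with TSA, and 35 in each of the 3 Hras.Myc lists. Over all protein-coding genes 62.0% to 65.9% had an open promoter, against 78.6% to 90.5% of the members. This difference depended on weak peaks. Without the weakest 25% of each list, 20 (47.6%) to 26 (61.9%) members had an open promoter, against 52.9% to 57.3% of all genes, with the lowest number in Hras.E1A with and without PD. With lists of equal length it was 10 members (23.8%) in Hdac7SA.Mef2d, against 34.4%, and 20 (47.6%) in Hras.E1A, against 52.6%. With all peaks, the promoters of 31 members were open in all 7 lists, those of 8 in some lists, and those of Wnt8a, Wnt8b and Wnt10a in none. Receptors were the most complete group: 14 of 15 had an open promoter in all 7 lists, and Fzd10 was the exception. For these and later counts of promoters open in all 7 lists, the share over all genes was not computed. Nor were they repeated without weak peaks, so they are not read as particular to the members.

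**Figure D1:**
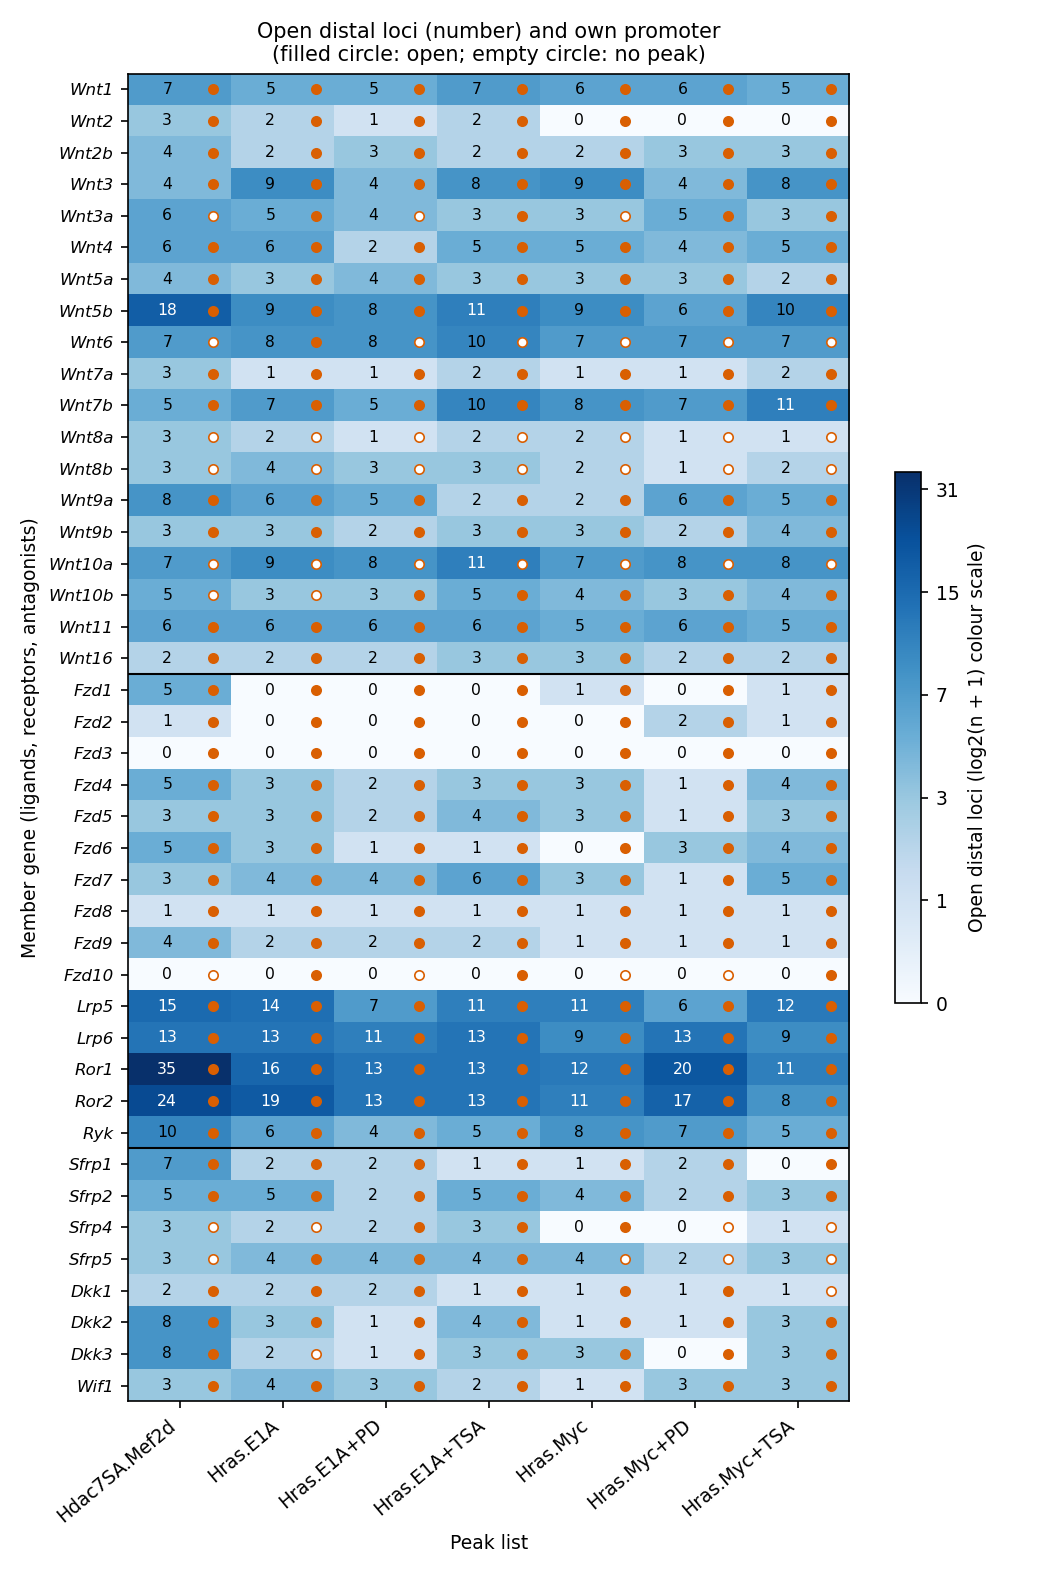
Number of open distal loci (printed and as colour, log2(n + 1) scale) of each of the 42 members (rows) in each of the 7 peak lists (columns), with a filled circle where the gene's own promoter was open and an empty circle where it had no peak. Ror1 stands out with 35 open distal loci in Hdac7SA.Mef2d, and the 3 rows with empty circles throughout are Wnt8a, Wnt8b and Wnt10a.

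At the 8 promoters open in only some lists, peak scores ranged from percentile 0.754 to 58.6. Scores are given as percentiles, the share of peaks in the same list with a lower score. The promoter of Wnt6, which encodes a canonical ligand of epithelia and their neighbours, was open only in untreated Hras.E1A, at percentile 1.27. The Wnt3a promoter was open in Hras.E1A (percentile 5.64) and Hras.E1A with TSA (33.3), and in Hras.Myc with PD (12.9) and with TSA (11.5), but not in Hdac7SA.Mef2d. The promoter of Fzd10, a Frizzled receptor, was open in untreated Hras.E1A (15.3) and in both TSA lists (39.6 and 37.0). Wnt10b had 2 promoter loci, of which the one at its TSS was open in 5 lists, at percentiles from 1.47 to 17.9, and in neither Hdac7SA.Mef2d nor untreated Hras.E1A.

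Among the antagonists, the Sfrp5 promoter was open in the 3 Hras.E1A lists alone, at percentiles 42.2 untreated, 14.5 with PD and 18.9 with TSA. Sfrp4 had an open promoter in Hras.E1A with PD and with TSA and in untreated Hras.Myc, at percentiles 0.754, 12.02 and 6.60. The Dkk1 promoter was open in every list except Hras.Myc with TSA, at percentiles from 28.1 to 51.4. One Dkk3 promoter locus was open in all lists except untreated Hras.E1A, from percentile 6.48 in Hdac7SA.Mef2d to 58.6 in Hras.Myc. Over all own promoter loci, PD closed 6 of 43 in Hras.E1A and 3 of 44 in Hras.Myc, against backgrounds of 6.98% and 7.16%. PD opened 5 of 42 and 2 of 43, against 3.52% and 4.49%. TSA closed 1 of 43 in Hras.E1A and 6 of 44 in Hras.Myc, against 4.26% and 7.08%, and opened 4 of 46 and 6 of 44, against 4.02% and 4.9%. With so few loci, the 95% interval includes the background in 6 of these 8 comparisons. The exceptions were loci opened with PD in Hras.E1A (11.9%, interval 3.98% to 25.6%) and with TSA in Hras.Myc (13.6%, interval 5.17% to 27.4%). They rested on 5 and 6 loci. Most of the 5 had weak peaks with PD: 2 at Wnt10b (percentiles 15.4 and 1.47), Wnt7b (7.78) and Sfrp4 (0.754). The other was the Dkk3 locus named above. None of these promoter shares was recomputed without weak peaks, so the exceptions are not read as departures from the background.

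Distal loci differed far more between lists than promoters did. Of the 332, Hdac7SA.Mef2d had 253 open. Hras.E1A had 187 untreated, 141 with PD and 178 with TSA, and Hras.Myc had 148 untreated, 148 with PD and 158 with TSA. Over all genes, 68014 of the 88035 distal loci were open in Hdac7SA.Mef2d. There were 47499 in Hras.E1A, 32562 with PD and 46395 with TSA, and 39699 in Hras.Myc, 30441 with PD and 41766 with TSA. A core of 56 of the 332 member loci (16.9%, background 15.5%) was open in all 7 lists. A further 53 of the 332 were open in Hdac7SA.Mef2d alone, against 19943 of 88035 over all genes. The core was larger among ligands, with 34 of 119 distal loci (28.6%), than among receptors, with 17 of 168 (10.1%); the difference was not tested.

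In the untreated cells, 95 of the 253 distal loci open in Hdac7SA.Mef2d (37.5%, interval 31.6% to 43.8%) were open in neither Hras line, against a background of 43%. The share was 22 of 90 among ligands (24.4%, interval 16.0% to 34.6%), 56 of 124 among receptors (45.2%) and 17 of 39 among antagonists (43.6%). The low share of the ligands depended on weak peaks: without the weakest 25% of each list it was 45.6%, against a background of 49.0%. In the other direction, 23 of 133 distal loci open in both Hras lines (17.3%) had no peak in Hdac7SA.Mef2d, against 20%. That order turned without the weakest 25% of each list (32.1%, background 27.8%) and with all lists cut to the length of the shortest (57.8%, background 48.9%). Between the Hras lines, 54 of 187 loci of Hras.E1A (28.9%) were not open in Hras.Myc, against 27%, and 15 of 148 loci of Hras.Myc (10.1%) were not open in Hras.E1A, against 12.6%. With lists of equal length the latter share was 29.7%, against 26.4%.

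PD closed 76 of the 187 distal loci open in untreated Hras.E1A (40.6%, interval 33.5% to 48.1%), against 44.6% over all genes. It opened 30, or 21.3% of the 141 open with PD, against 19.2%. In Hras.Myc, PD closed 53 of 148 (35.8%, interval 28.1% to 44.1%), below the background of 46.1%, and opened 53 of 148 (35.8%, interval 28.1% to 44.1%), against 29.7%. In Hras.Myc the members thus had equal numbers of open distal loci without and with PD, while over all genes the number went from 39699 to 30441. This balance rested on Ror1 and Ror2. Without them the number was 125 in untreated Hras.Myc and 111 with PD. TSA closed 38 of 187 in Hras.E1A (20.3%, background 17.9%) and 34 of 148 in Hras.Myc (23.0%, background 18.8%). It opened 29 of 178 (16.3%, background 15.9%) and 44 of 158 (27.8%, background 22.9%). The intervals of all 4 TSA shares include the background.

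**Figure D2:**
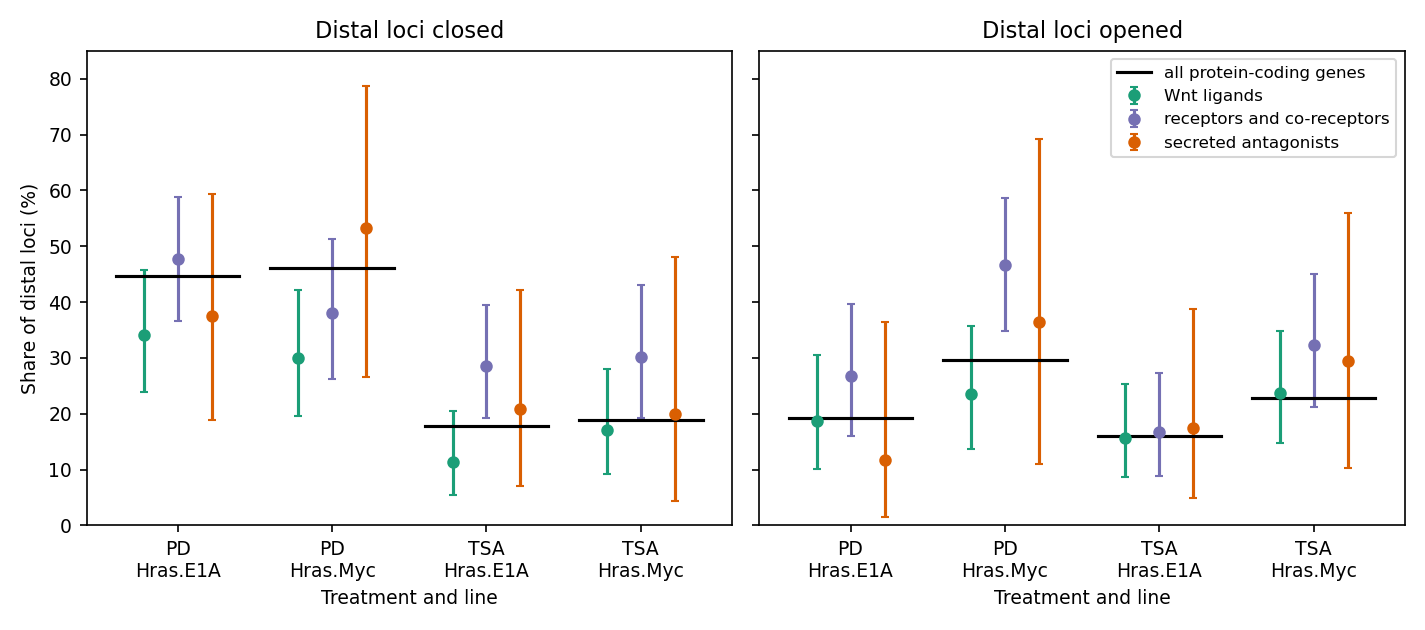
Share (%) of distal loci closed, left, and opened, right, with PD or TSA in each Hras line, for ligands, receptors and antagonists; error bars are exact binomial 95% intervals and black lines the share over all protein-coding genes. Receptors in Hras.Myc with PD opened at 46.6%, above the background of 29.7%, and ligands closed with PD at 34.2% and 30.0%, below 44.6% and 46.1%.

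Some loci closed with PD in both lines. Of 133 distal loci open in both untreated Hras lines, 33 (24.8%) closed with PD in both, against 29.8% over all genes. A further 11 closed in Hras.E1A alone, and 12 only in Hras.Myc, against 3403 and 4005 of 34687 over all genes. Of the 332 distal loci, 5 closed in Hras.E1A and opened in Hras.Myc, and 0 did the reverse. Over all genes these were 809 and 318 of 88035, so the larger first number is not particular to the members. Of the 53 loci opened in Hras.Myc, 36 (67.9%, background 66.4%) were open in Hdac7SA.Mef2d and 17 (32.1%, background 36.3%) in untreated Hras.E1A.

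The shares of ligand loci closed with PD were below the background: 27 of 79 in Hras.E1A (34.2%, interval 23.9% to 45.7%) and 21 of 70 in Hras.Myc (30.0%, interval 19.6% to 42.1%). In Hras.E1A the interval includes the background of 44.6%, and without the weakest 25% of each list the Hras.Myc share was 45.2%, against 51.8%. Wnt3, a canonical ligand, had the most loci closed with PD among the ligands, 5 of 9 in each line. With so few loci, this cannot be told apart from the backgrounds of 44.6% and 46.1%. It had 4 open distal loci in Hdac7SA.Mef2d, 9 in Hras.E1A, 4 with PD and 8 with TSA, and 9 in Hras.Myc, 4 with PD and 8 with TSA. All 9 of its distal loci were thus open in both untreated Hras lines, and PD brought both to the number seen in Hdac7SA.Mef2d. The 5 loci that closed with PD in Hras.E1A were the same 5 that had no peak in Hdac7SA.Mef2d, and 4 of them also closed in Hras.Myc. They include both Wnt3 sequences printed above, whose peaks stood at percentiles 83.0 and 83.2 in untreated Hras.E1A and 90.1 and 66.1 in untreated Hras.Myc. The strongest distal locus of the gene, 6.22 kb inside it, was open in all lists, at percentiles from 84.7 to 99.7. Of the 5 loci closed in Hras.E1A, those downstream of Wnt3 lie in the body of Nsf, so position alone does not tie them to Wnt3.

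Wnt4, a ligand known from kidney and gonad development, had 6 open distal loci in Hdac7SA.Mef2d, 6 in Hras.E1A, 2 with PD and 5 with TSA, and 5 in Hras.Myc, 4 with PD and 5 with TSA. PD closed 4 and opened 0 in Hras.E1A, and closed 2 and opened 1 in Hras.Myc. Wnt5b, a ligand close to Wnt5a, had 18 in Hdac7SA.Mef2d, 9 in Hras.E1A, 8 with PD and 11 with TSA, and 9 in Hras.Myc, 6 with PD and 10 with TSA. Of the 18 loci of Wnt5b open in Hdac7SA.Mef2d, 8 were open in neither untreated Hras line, which is near the background of 43%. PD closed 3 of its loci and opened 0 in Hras.Myc, whereas in Hras.E1A it closed 3 and opened 2. Wnt7b, a canonical ligand, had 5 in Hdac7SA.Mef2d, 7 in Hras.E1A, 5 with PD and 10 with TSA, and 8 in Hras.Myc, 7 with PD and 11 with TSA. TSA opened 3 and closed 0 of its distal loci in both lines, and 3 loci open in both Hras lines had no peak in Hdac7SA.Mef2d.

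Wnt9a had 8 open distal loci in Hdac7SA.Mef2d, 6 in Hras.E1A, 5 with PD and 2 with TSA, and 2 in Hras.Myc, 6 with PD and 5 with TSA. PD opened 4 of them in Hras.Myc and closed 0. TSA closed 4 and opened 0 in Hras.E1A, but opened 3 and closed 0 in Hras.Myc. Its neighbour Wnt3a, with which it shares 3 distal loci, had 5 in Hras.E1A and 3 with TSA. Wnt6 and Wnt10a, which share 8 distal loci, had few changes: 4 of the shared loci were open in all lists, and TSA in Hras.E1A opened 2 and closed 0 at each gene. Wnt1 and Wnt10b also each had 2 opened and 0 closed with TSA in Hras.E1A. Wnt5a, the ligand of Ror1 and Ror2, had 4 open distal loci in Hdac7SA.Mef2d and 2 to 4 in the other lists. Its locus 14.1 kb upstream, printed above, was at percentile 94.4 in Hras.E1A, at 66.6 in Hras.Myc, had no peak with PD in either line, and was at percentiles 99.4 and 78.9 with TSA. The remaining ligands (Wnt2, Wnt2b, Wnt7a, Wnt8a, Wnt8b, Wnt9b, Wnt11 and Wnt16) had net changes of at most 1 distal locus in any treatment.

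Among receptors, PD closed 40 of 84 distal loci in Hras.E1A (47.6%, interval 36.6% to 58.8%) and 24 of 63 in Hras.Myc (38.1%, interval 26.1% to 51.2%), and both intervals include the background. PD opened 16 of 60 in Hras.E1A (26.7%, interval 16.1% to 39.7%) and 34 of 73 in Hras.Myc (46.6%, interval 34.8% to 58.6%). The latter lies above the background of 29.7%, but Ror1 and Ror2 gave 22 of the 34 loci, and without them the share was 12 of 36 (33.3%). TSA closed 24 of 84 receptor loci in Hras.E1A (28.6%, interval 19.2% to 39.5%) and 19 of 63 in Hras.Myc (30.2%, interval 19.2% to 43.0%), above the backgrounds of 17.9% and 18.8%. These excesses depended on weak peaks: without the weakest 25% of each list the shares were 22.6% and 22.5%, below backgrounds of 23.2% and 26.2%. With all peaks, Ror1 and Ror2 gave 11 and 9 of these closed loci. Without them the TSA shares were 13 of 49 (26.5%) and 10 of 40 (25.0%).

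Ror1 and Ror2 are receptor tyrosine kinase-like proteins that bind Wnt5a. Ror1 had 35 open distal loci in Hdac7SA.Mef2d, 16 in Hras.E1A, 13 with PD and 13 with TSA, and 12 in Hras.Myc, 20 with PD and 11 with TSA. At 20 of the 35 loci open in Hdac7SA.Mef2d, the most of any member, neither untreated Hras line had a peak. The background for this share was 43%, and the difference was not tested. Ror2 had 24 in Hdac7SA.Mef2d, 19 in Hras.E1A, 13 with PD and 13 with TSA, and 11 in Hras.Myc, 17 with PD and 8 with TSA. The main promoter of both genes was open in all 7 lists, at percentiles from 30.1 to 53.5 for Ror1 and 28.4 to 71.3 for Ror2, so the differences lay outside the main promoters.

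The net change with PD at these genes had opposite signs in the 2 lines, a difference that was not tested. At Ror1 it closed 8 and opened 5 distal loci in Hras.E1A, and closed 4 and opened 12 in Hras.Myc. At Ror2 it closed 10 and opened 4 in Hras.E1A, and closed 4 and opened 10 in Hras.Myc. Of the 22 loci opened in Hras.Myc at both genes, 16 were open in Hdac7SA.Mef2d, 8 in untreated Hras.E1A and 11 in Hras.E1A with PD, and 2 were open in Hras.Myc with TSA. The AP-1 motif was present in 2 of the 22 and the TEAD motif in 5, against 10.1% and 26.6% of all loci opened in that comparison. Of the 18 loci closed in Hras.E1A, 6 held the AP-1 motif, against 56.2% of all. The Ror1 locus printed above had no peak in any other Hras list but stood at percentile 95.04 in Hras.Myc with PD and 79.1 in Hdac7SA.Mef2d. The Ror2 locus stood at 89.7 in Hras.Myc with PD and 83.8 in Hras.E1A with PD, above its 15.2 in untreated Hras.E1A and 20.7 in Hdac7SA.Mef2d. In the part of Ror1 that lies more than 200 kb from its TSS, the gene with the nearest TSS is Ube2u, and downstream of Ror2 it is Nfil3, so position alone does not tie these loci to the Ror genes.

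**Figure D3:**
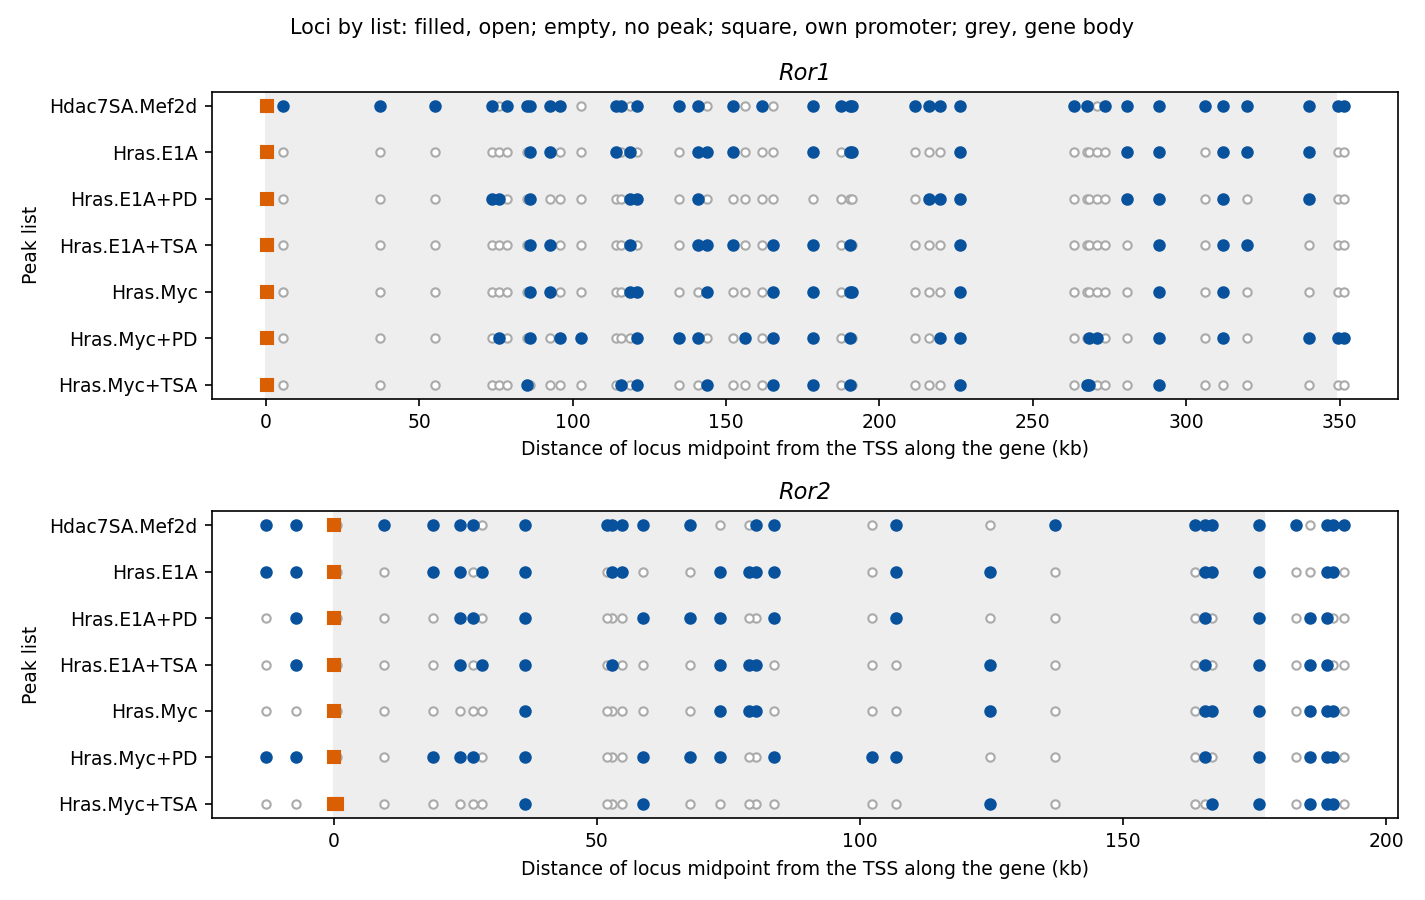
Loci of Ror1 (top) and Ror2 (bottom) by the distance of their midpoint from the TSS along the gene (kb) in each of the 7 lists; filled circles are open distal loci, empty circles loci with no peak in that list, squares open own promoter loci, and grey the gene body. The Hras.Myc rows show 12 open distal loci at Ror1 and 20 with PD, and 11 and 17 at Ror2.

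Lrp5 and Lrp6, the co-receptors of the canonical branch, differed in the number of distal loci opened with PD, a difference that was not tested. Lrp5 had 15 open distal loci in Hdac7SA.Mef2d, 14 in Hras.E1A, 7 with PD and 11 with TSA, and 11 in Hras.Myc, 6 with PD and 12 with TSA. PD closed 7 of the 14 and opened 0 in Hras.E1A, and closed 5 of the 11 and opened 0 in Hras.Myc. These closed counts are near the backgrounds of 44.6% and 46.1%. The 4 Lrp5 loci at 1.37 kb and 17.3 kb inside the gene and 6.12 kb and 7.02 kb upstream of its TSS closed in both lines and were open in Hdac7SA.Mef2d and with TSA. Lrp6 had 13 in Hdac7SA.Mef2d, 13 in Hras.E1A, 11 with PD and 13 with TSA, and 9 in Hras.Myc, 13 with PD and 9 with TSA. PD closed 6 and opened 4 in Hras.E1A, and closed 3 and opened 7 in Hras.Myc. TSA closed 6 and opened 6 in Hras.E1A and closed 4 and opened 4 in Hras.Myc, so that the number stayed level while the loci changed.

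The Frizzled genes had few distal loci, from 0 at Fzd3 and Fzd10 to 9 at Fzd6, yet 9 of the 10 had an open promoter in all 7 lists. Fzd6 had 5 open distal loci in Hdac7SA.Mef2d, 3 in Hras.E1A, 1 with PD and 1 with TSA, and 0 in Hras.Myc, 3 with PD and 4 with TSA. PD and TSA each closed 2 in Hras.E1A, and opened 3 and 4 in Hras.Myc. Fzd4 and Fzd7 had 3 open distal loci each in untreated Hras.Myc and 1 each with PD, which closed 2 at both. Fzd5 went likewise from 3 to 1, and the 2 loci lost include the upstream one printed above. Fzd2 had 0 in untreated Hras.Myc, 2 with PD and 1 with TSA. Fzd1 had 5 open distal loci in Hdac7SA.Mef2d, 0 in the 3 Hras.E1A lists and 0 or 1 in the Hras.Myc lists. Ryk, a receptor with a Wnt-binding domain and an inactive kinase, had 10 in Hdac7SA.Mef2d, 6 in Hras.E1A, 4 with PD and 5 with TSA, and 8 in Hras.Myc, 7 with PD and 5 with TSA. Fzd8 and Fzd9 had no distal locus closed or opened with either treatment.

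**Figure D4:**
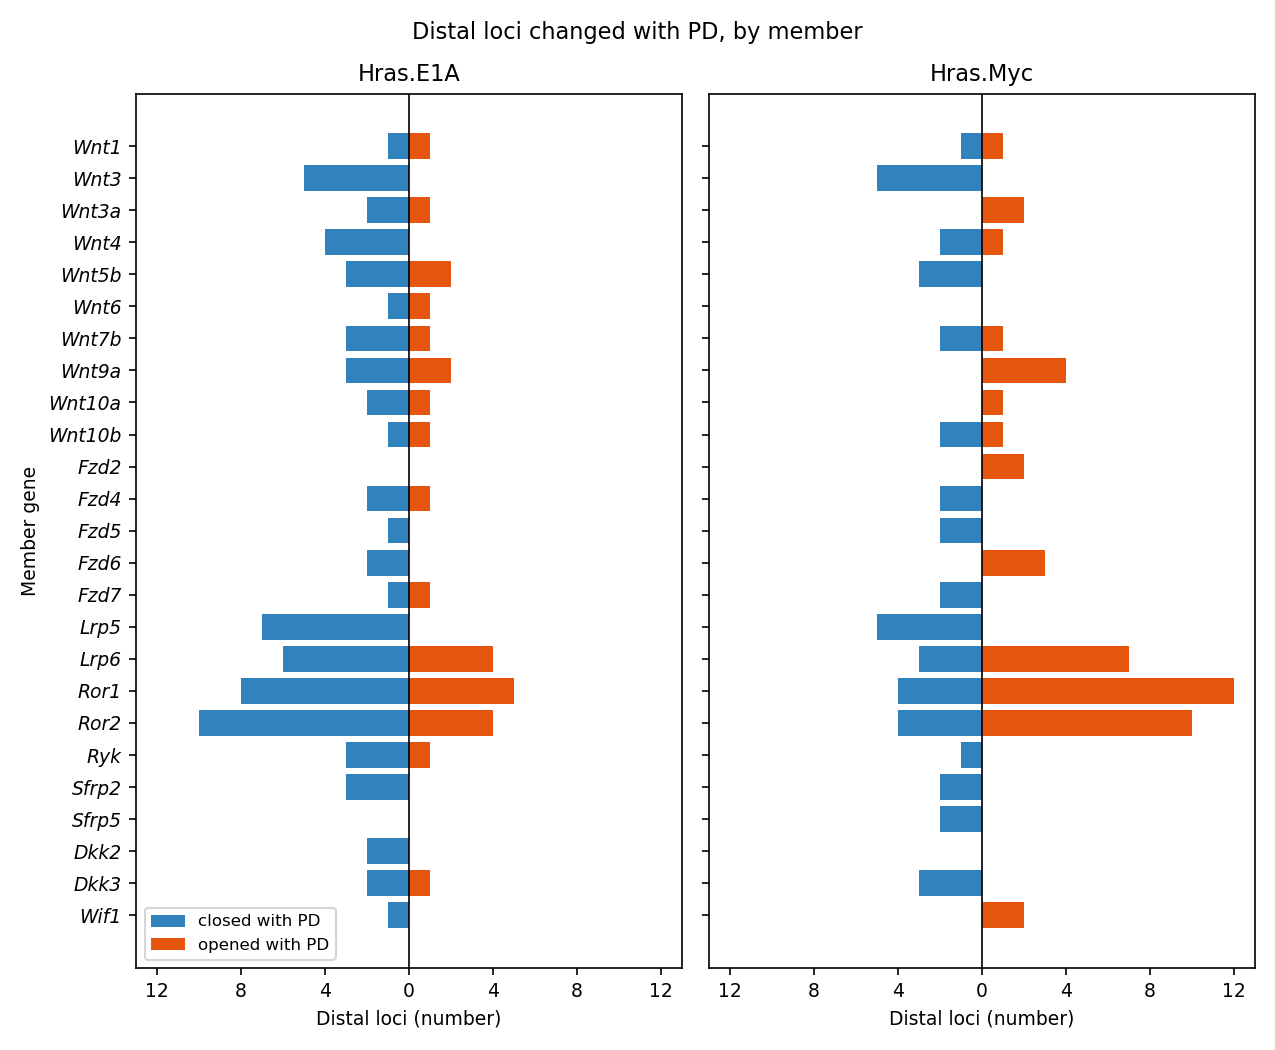
Number of distal loci closed (left of 0) and opened (right of 0) with PD in each Hras line, for the 25 members with a net change of 2 or more distal loci in a comparison of PD or TSA. Wnt3 and Lrp5 have closed loci only in both lines (5 and 5, 7 and 5), while Ror1, Ror2, Lrp6 and Fzd6 point to more closed in Hras.E1A and more opened in Hras.Myc.

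The antagonists were the smallest group, with 45 distal loci, of which 39 were open in Hdac7SA.Mef2d, 24 in Hras.E1A, 17 with PD and 23 with TSA, and 15 in Hras.Myc, 11 with PD and 17 with TSA. PD closed 9 of 24 in Hras.E1A (37.5%, interval 18.8% to 59.4%) and 8 of 15 in Hras.Myc (53.3%, interval 26.6% to 78.7%), and both intervals include the background. Sfrp1 had 7 open distal loci in Hdac7SA.Mef2d, 2 in Hras.E1A, 2 with PD and 1 with TSA, and 1 in Hras.Myc, 2 with PD and 0 with TSA. This left 5 of the 7 loci open in Hdac7SA.Mef2d open in neither untreated Hras line, against a background of 43%. The difference rests on few loci and was not tested. The single locus of untreated Hras.Myc, printed above, was at percentile 87.4 in Hras.E1A, at 74.0 in Hras.Myc, and had no peak with PD in either.

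Sfrp2 had 5 open distal loci in Hdac7SA.Mef2d, 5 in Hras.E1A, 2 with PD and 5 with TSA, and 4 in Hras.Myc, 2 with PD and 3 with TSA. PD closed 3 of its loci in one line (Hras.E1A) and 2 in the other, all with the AP-1 motif. The locus printed above closed in both lines, so both numbers include it. Over all genes, 56.2% and 52.7% of PD-closed distal loci held this motif, in the same order of lines. With so few loci at Sfrp2, the difference was not tested. Dkk3, the most distant relative in the Dickkopf family, had 8 in Hdac7SA.Mef2d, 2 in Hras.E1A, 1 with PD and 3 with TSA, and 3 in Hras.Myc, 0 with PD and 3 with TSA. Dkk2 had 8 in Hdac7SA.Mef2d, 3 in Hras.E1A, 1 with PD and 4 with TSA, and 1 in Hras.Myc, 1 with PD and 3 with TSA. At both Dkk2 and Dkk3, 5 of the 8 loci open in Hdac7SA.Mef2d were open in neither untreated Hras line, against a background of 43%. These few loci were not tested. Wif1 had 3 in Hdac7SA.Mef2d, 4 in Hras.E1A, 3 with PD and 2 with TSA, and 1 in Hras.Myc, 3 with PD and 3 with TSA. TSA closed 2 and opened 0 of its loci in Hras.E1A, and opened 2 and closed 0 in Hras.Myc. Sfrp4, Sfrp5 and Dkk1 had 4, 4 and 2 distal loci, and PD closed 2 of those of Sfrp5 in Hras.Myc.

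The AP-1 motif was searched on both strands in the central 200 bases of the distal loci. It was present in 82 of the 332 (24.7%, interval 20.2% to 29.7%), against 30.8% of all distal loci near protein-coding genes. In Hras.E1A it was in 33 of the 76 closed with PD (43.4%, interval 32.1% to 55.3%), 21 of the 111 kept (18.9%, interval 12.1% to 27.5%) and 5 of the 30 opened (16.7%, interval 5.64% to 34.7%). In Hras.Myc it was in 25 of 53 closed (47.2%, interval 33.3% to 61.4%), 24 of 95 kept (25.3%, interval 16.9% to 35.2%) and 6 of 53 opened (11.3%, interval 4.27% to 23.0%). Among the 33 that closed in both, 19 held it (57.6%, interval 39.2% to 74.5%), against 66.3%. The same order, closed above kept, was seen over all genes, with 56.2% and 20.6% in Hras.E1A and 52.7% and 28.2% in Hras.Myc, so the pattern was not particular to Wnt genes. With TSA the order was the other way: 8 of 38 closed loci in Hras.E1A (21.1%) and 46 of 149 kept ones (30.9%) held the motif, and in Hras.Myc 6 of 34 (17.6%) and 43 of 114 (37.7%). Over all genes the order was the same, with 23.4% and 39.3% in Hras.E1A and 26.5% and 42.5% in Hras.Myc.

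**Figure D5:**
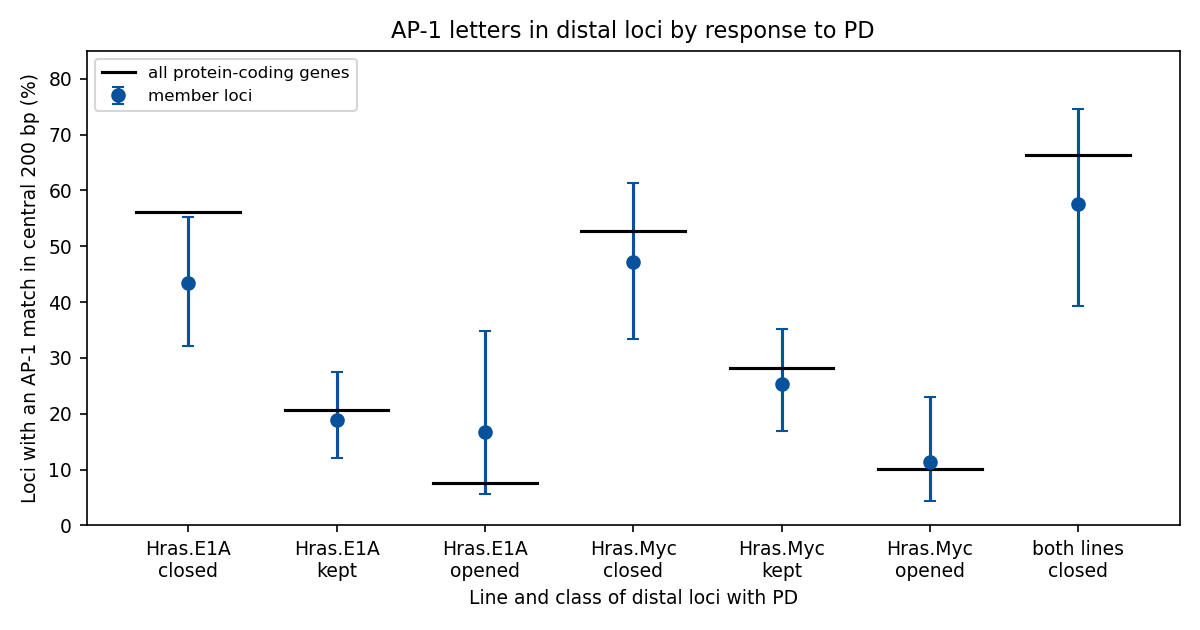
Share (%) of distal loci with an AP-1 match in the central 200 bp, by line and response to PD; points with exact binomial 95% intervals are the member loci and black lines all distal loci of protein-coding genes in the same class. The closed classes (43.4% and 47.2%, and 57.6% for both lines) lie above the kept and opened ones, for members and background alike.

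Closed loci also had weaker peaks to begin with. The median score percentile in untreated Hras.E1A was 27.7 for loci closed with PD and 46.2 for those kept, and in untreated Hras.Myc 33.6 and 40.6. With TSA it was 25.7 and 45.1 in Hras.E1A and 21.4 and 42.7 in Hras.Myc. Below percentile 25 were 36 of the 76 PD-closed loci of Hras.E1A, and 20 of the 53 of Hras.Myc. The part of weak peaks in the closed shares was not tested beyond the removal of the weakest 25% of each list.

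Other genes of the pathway were taken from a list of 35. All 14 intracellular genes, among them Ctnnb1 (beta-catenin), the Dvl, Axin and Gsk3 genes and Apc, had an open promoter in every list. Of 21 other extracellular or membrane genes, 15 to 19 had one in each list, and those of Kremen2, a partner of Dickkopf proteins, and Sost, an Lrp5 and Lrp6 inhibitor of bone, were open in none. At the intracellular genes, PD closed 21 of 54 distal loci in Hras.E1A (38.9%, background 44.6%) and 18 of 48 in Hras.Myc (37.5%, background 46.1%), and opened 9 of 42 (21.4%, background 19.2%) and 4 of 34 (11.8%, background 29.7%). At the other extracellular genes it closed 35 of 85 (41.2%) and 35 of 78 (44.9%), and opened 18 of 68 (26.5%) and 26 of 69 (37.7%). Apart from 4 of 34, whose interval (3.30% to 27.5%) lies below the background, these intervals include it. Ctnnb1 had 6 open distal loci in Hdac7SA.Mef2d, 6 in Hras.E1A, 1 with PD and 5 with TSA, and 5 in Hras.Myc, 2 with PD and 4 with TSA. Gsk3b, the kinase that marks beta-catenin for breakdown, had 20 in Hdac7SA.Mef2d, 12 in Hras.E1A, 8 with PD and 12 with TSA, and 9 in Hras.Myc, 1 with PD and 9 with TSA. Lgr4, an R-spondin receptor, gained loci with PD: it had 15 in Hdac7SA.Mef2d, 2 in Hras.E1A, 8 with PD and 5 with TSA, and 4 in Hras.Myc, 11 with PD and 3 with TSA. These 3 genes were picked from the list after their values were seen.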

How the data were processed

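ATAC-seq peak lists of transformed MEFs were analysed for 7 groups (12 libraries). Alignment with Bowtie2 (2.4.5), peak calling with MACS2 (2.2.7.1) and the mm10 build are named in the submitters' processing notes, and the study's methods describe a later step that recovers low-scoring peaks across samples. The authors deposited 1 list per group, with replicates pooled; each peak is 400 bp wide. Column 5 holds a peak score that the authors computed before deposit, on a scale that is not stated, and it was used only as a rank within its list. Read depth is not known, so the lack of a peak does not show a lack of reads.

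Loci were made by merging peaks that overlapped by 1 bp or more (autosomes 1 to 19, X and Y). TSSs and gene bodies were those of GENCODE M21 basic, and no peak lay past a chromosome end of the GRCm38 genome used for sequences. The background was every distal or promoter locus in the windows of all protein-coding genes (20000 bp, promoter 1000 bp). Shares carry Clopper-Pearson 95% intervals. Motifs of AP-1 (TGANTCA), TEAD (GGAATG), TCF (CTTTGAT), RUNX (TGTGGT) and E-box (CACGTG) were matched by letters on both strands; only the first pair is reported.

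Described in detail were members with a promoter open in only some lists, with a net change of 2 or more distal loci with a treatment, or with 3 or more distal loci of Hdac7SA.Mef2d absent from both untreated Hras lines (2 or more the reverse way); others are given by counts. The printed loci were picked by score. The members, lists and rules were chosen with earlier results of these data known. Python 3.11.15, pandas 2.3.3, SciPy 1.17.1 and pysam 0.24.0 were used, and the counting was tested on simulated loci. The alternatives tried are given with their effect at the end.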

Additional observations from a re-analysis of the deposited data

Results flagged for a closer look

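In all, 7 results differed in direction between the Hras lines: at these members a treatment closed at least 2 more distal loci than it opened in Hras.E1A and opened at least 2 more than it closed in Hras.Myc. With 1 list per group the difference was not tested. With PD, opened minus closed distal loci were -2 in Hras.E1A and 3 in Hras.Myc at Fzd6, -2 and 4 at Lrp6, -3 and 8 at Ror1, and -6 and 6 at Ror2. With TSA they were -4 and 3 at Wnt9a, -2 and 4 at Fzd6, and -2 and 2 at Wif1. No member differed in the reverse direction by this measure. Over all distal loci near protein-coding genes, PD also opened a larger share in Hras.Myc (29.7%) than in Hras.E1A (19.2%), and so did TSA (22.9% and 15.9%). Over these loci TSA closed 8489 and opened 7385 in Hras.E1A, and closed 7479 and opened 9546 in Hras.Myc. The opposite signs with TSA are thus not particular to these members. PD closed more of all these loci than it opened in both lines. How many other genes differ by this measure was not counted.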

How the results depend on the processing

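No paired analysis was possible because each group has 1 pooled peak list, and no replicate could be left out for the same reason. Of 256 recomputed values, 228 stayed within the interval (or, for promoter counts, within 1.5 times) of the value reported. The others came mostly from removing weak peaks, which moved the background too. This tally is not a measure of robustness. Promoter counts could not change with the window, the tolerance or the nearest-TSS rule. The range also takes no account of the background. For example, ligand loci closed with PD in Hras.E1A stayed in range at 42.1% with windows of 50000 bp, but the background was 44.7%. A 50% cover of the locus, no merging with reciprocal overlap, a 500 bp tolerance, promoters of 500 or 2000 bp, windows of 5000 or 50000 bp and loci with a member as nearest TSS moved no share or count out of range. Without the weakest 25% of each list, PD opened 30.6% in Hras.E1A, and 46.5% in Hras.Myc (backgrounds 25.7% and 36.7%). TSA then closed 28.9% and opened 25.2% in Hras.E1A (backgrounds 23.2% and 20.7%) and opened 36.9% in Hras.Myc (background 28.0%). Of Hdac7SA.Mef2d loci, 48.8% were open in neither Hras line (background 49.0%), and 32.1% of loci of both Hras lines had no peak in Hdac7SA.Mef2d (background 27.8%). With all lists cut by score to the length of the shortest, PD closed 33.0% in Hras.E1A and opened 44.7%, and in Hras.Myc it opened 47.3% (backgrounds 41.4%, 39.2% and 40.3%). TSA closed 29.4% and opened 28.7% in Hras.E1A (backgrounds 23.4% and 22.3%). The line comparisons then gave 44.7% for Hdac7SA.Mef2d (background 45.7%), 57.8% for the reverse (background 48.9%) and 29.7% of Hras.Myc loci not open in Hras.E1A (background 26.4%). Members with an open promoter numbered 10 in Hdac7SA.Mef2d, 20 in Hras.E1A, and 22 with TSA in Hras.E1A at equal length, and 20 in Hras.E1A, 20 in Hras.E1A with PD and 22 in Hras.Myc with PD without the weakest 25%. In the central 100 bp, the AP-1 motif was in 31.6% of loci closed with PD and 10.8% of kept ones in Hras.E1A (backgrounds 39.7% and 13.9%). In Hras.Myc these were 30.2% and 16.8% (backgrounds 37.1% and 19.7%). The receptor share without Ror1 and Ror2 was chosen after seeing the data. Depth, which is unknown, limits every count: a peak may be missing from a list for lack of reads.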
